A study of Homo sapiens with 17 samples.

Results

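The 10 heat shock genes described here are HSPA1A, HSPA1B, HSPA8, HSPH1, HSP90AA1, HSP90AB1, DNAJB1, HSPD1, HSPE1 and BAG3, which were chosen by name out of 63677 genes with counts and all had a matching identifier. The RNA came from Karpas-422 and WSU-DLCL2, which are established human lines of diffuse large B cell lymphoma. The libraries formed 5 groups of 3: Karpas-422 with A-485 for 48 h, untreated Karpas-422, WSU-DLCL2 with A-485 for 48 h, 3 WSU-DLCL2 clones with BCL11A knocked out according to their labels, and untreated WSU-DLCL2. The groups called untreated are titled by cell line alone, and whether they received a vehicle such as DMSO cannot be told from the titles. A-485 is a small-molecule blocker of p300 and CBP, enzymes that acetylate histones, and BCL11A encodes a DNA-binding zinc-finger protein needed by B cells. An unedited clone was not analysed here, so effects of growing a clone and of losing BCL11A cannot be told apart. The labels leave unsaid whether the remaining replicates were grown apart; p-values then reflect only how these libraries spread, possibly for technical reasons.

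Heat shock proteins are chaperones that bind unfolded or newly made proteins and help them to fold. In the cytosol, J-domain proteins such as DNAJB1 hand clients to HSP70 (HSPA1A, HSPA1B and HSPA8), HSPH1 and BAG3 help HSP70 to exchange its nucleotide, and HSP90 (HSP90AA1 and HSP90AB1) matures kinases and receptors. In mitochondria, HSPD1 (HSP60) and its lid HSPE1 (HSP10) form a folding chamber. Under heat or unfolded protein the transcription factor HSF1 binds heat shock elements, inverted repeats of the bases GAA, at inducible genes of this kind. HSPA8 and HSP90AB1 are known as the constitutive forms, and HSPA1A, HSPA1B and HSP90AA1 as the more inducible ones.

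Upstream sequence of 7 of the genes is shown because it holds such repeats beside the start. RefSeq promoter sequence on GRCh38.p14, 250 bases before to 50 bases after each start, was available for all 10 genes at 16 starts. A 3-unit element was searched as GAANNTTCNNGAA or TTCNNGAANNTTC and a 2-unit element as GAANNTTC or TTCNNGAA; each 3-unit match also holds 2-unit matches, and these letters cover both strands. The 3-unit element was present for 4 genes (HSPA8, HSP90AA1, HSP90AB1 and HSPD1) and the 2-unit element for 7, against 0.49% and 13.5% of 35116 RefSeq promoters; genes with several starts had several chances, and the windows to print were chosen after the matches were seen. Capitals mark the GAA and TTC units, written 5′ to 3′ on the gene's strand. HSPA8 (chr11:123062137-123062386, minus strand) has 3-unit matches that begin 230 and 55 bases before the start.
HSPA8: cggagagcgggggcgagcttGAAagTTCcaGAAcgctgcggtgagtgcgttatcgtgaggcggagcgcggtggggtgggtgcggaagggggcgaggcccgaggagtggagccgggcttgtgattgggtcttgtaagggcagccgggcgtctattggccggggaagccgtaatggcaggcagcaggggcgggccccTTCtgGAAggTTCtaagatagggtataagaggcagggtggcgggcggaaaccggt
The second start of HSP90AA1 (chr14:102087045-102087164, minus strand) has a 3-unit match 88 bases before it and a 2-unit match 68 bases before it.
HSP90AA1: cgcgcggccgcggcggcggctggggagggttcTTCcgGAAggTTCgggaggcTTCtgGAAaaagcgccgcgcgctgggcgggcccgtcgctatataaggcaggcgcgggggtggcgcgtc
HSPA1A (chr6:31815423-31815542, plus strand) and HSPA1B (chr6:31827618-31827737, plus strand) have the same 2-unit match, 106 and 105 bases before the start.
HSPA1A: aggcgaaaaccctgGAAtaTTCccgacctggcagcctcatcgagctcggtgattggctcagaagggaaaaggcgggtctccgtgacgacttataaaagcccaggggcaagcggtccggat
HSPA1B: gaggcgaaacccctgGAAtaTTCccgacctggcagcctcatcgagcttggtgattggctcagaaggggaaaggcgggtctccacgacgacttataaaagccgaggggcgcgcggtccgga
The second start of DNAJB1 (chr19:14518398-14518497, minus strand) has 2-unit matches 77 and 47 bases before it.
DNAJB1: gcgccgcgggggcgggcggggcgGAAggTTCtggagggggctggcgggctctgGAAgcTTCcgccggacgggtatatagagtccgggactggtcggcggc
The third start of HSP90AB1 (chr6:44247773-44247802, plus strand) and the second start of HSPD1 (chr2:197500061-197500090, minus strand) are shown for their most distal match.
HSP90AB1: gcaggTTCtgGAAgaTTCatgggctccttc
HSPD1: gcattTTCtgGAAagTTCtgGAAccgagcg
In the windows of HSPH1, HSPE1 and BAG3 these letters were not found, which says nothing of binding there. A match is a description of the letters and not a site.

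The libraries were of unlike kinds. Counts assigned to genes reached 7792197 to 8897051 in Karpas-422 with A-485, 6949770 to 8186582 in untreated Karpas-422 and 6689320 to 7086106 in A-485-treated WSU-DLCL2. They reached 29669098 to 34904926 in the clones and 21233752 to 37286727 in untreated WSU-DLCL2. In the 9 shallow libraries ACTB, the cytoskeletal actin gene, stood at 3.20 to 31.9 CPM, a gene's share of the library's gene counts in parts per 1e6, and in the 6 deep libraries at 3432 to 9994 CPM. Low CPM of a gene in a shallow library was not read as low expression, and the kinds were not tested against each other. All 10 B cell markers checked were above 0 in every library; the lists of other cell types are given beside the Karpas-422 comparison. For replicate 3 of untreated WSU-DLCL2 the title names the untreated line while the treatment entry names A-485. Its title decided its group, and the clones are compared both with and without this library.

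**Figure D1:**
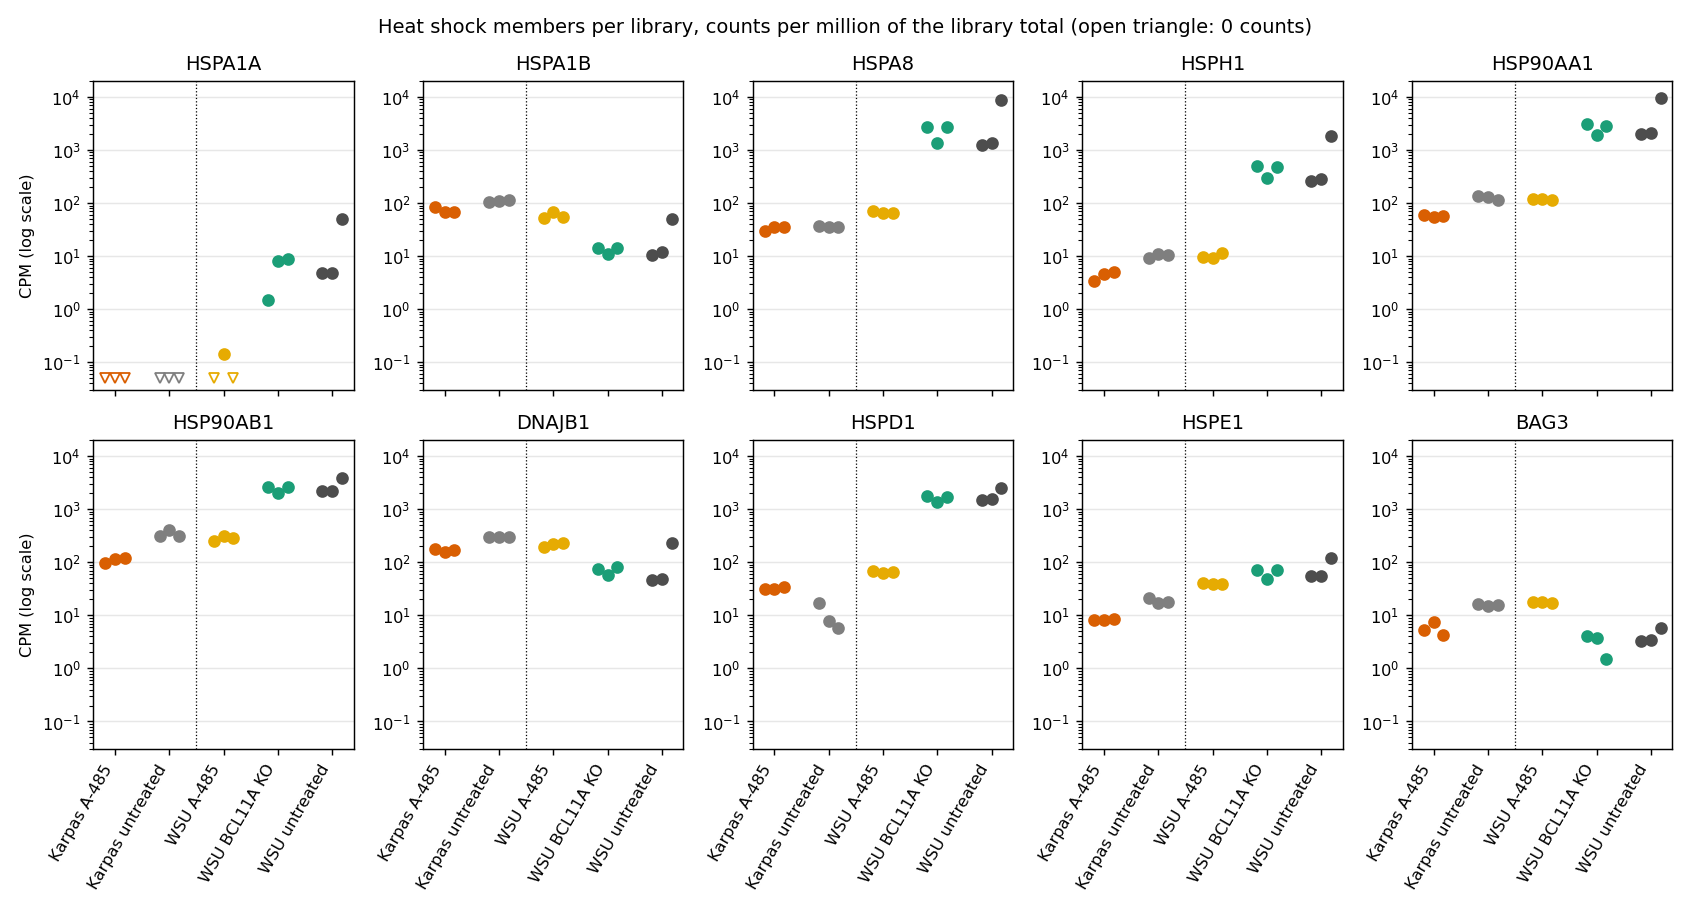
CPM (log scale) of each of the 10 genes in the 15 libraries; each point is 1 library, groups run from Karpas-422 with A-485 to untreated WSU-DLCL2, and the dotted line parts the cell lines. HSPA1A lay at 0 counts in all Karpas-422 libraries, and replicate 3 of untreated WSU-DLCL2 was the highest of the deep libraries for all 10 genes.

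The level order was set per length, as CPM per kb of annotated exonic length. In the clones it ran from HSP90AB1 (816 ± 118 CPM per kb, mean ± SD, n = 3) through HSP90AA1 (497 ± 121), HSPA8 (466 ± 162) and HSPD1 (379 ± 49.9) to HSPH1 (50.9 ± 13.02), HSPE1 (32.3 ± 7.04) and DNAJB1 (19.6 ± 3.41 CPM per kb). HSPA1B (5.16 ± 0.766), HSPA1A (2.49 ± 1.63) and BAG3 (1.14 ± 0.508 CPM per kb) were lowest there. HSP90AA1, HSPA8 and HSPD1 overlapped one another between clones, as did HSPH1 with HSPE1 and HSPA1A with BAG3. In untreated Karpas-422 the order was led by HSP90AB1 (117 ± 17.98 CPM per kb), DNAJB1 (82.3 ± 0.999) and HSPA1B (44.0 ± 1.91), and HSPD1 (2.40 ± 1.43) and HSPH1 (1.21 ± 0.120 CPM per kb) were lowest among the genes with counts. The order in untreated Karpas-422 is one of counts assigned in shallow libraries and was not read as an order of expression. Differences between these orders span the kinds of library and were not tested.

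The Karpas-422 comparison asked how these genes respond when p300 and CBP are blocked. Of the 9 genes that passed the filter on low counts, 8 fell with A-485 and 1, HSPD1, rose; HSPA1A had 0 counts in all 6 libraries. Both cytosolic HSP90 genes, the HSP70 genes HSPA1B and HSPA8, their partners DNAJB1, HSPH1 and BAG3, and the mitochondrial HSPE1 were among those that fell. Of all 11846 genes tested, 71.4% were called (33.7% lower and 37.6% higher); with library sizes alone the split was 2290 lower and 6465 higher, and 7 of the 9 genes were then called lower and 1 higher. The median log2 fold change was −1.54 over these 9 genes and 0.08 over all genes tested. With library sizes alone these medians were −1.13 and 0.49. Fold changes of single genes below use TMM scaling and CPM values use library totals, so the fold changes differ from the ratios of the printed CPM. In bulk RNA, fewer cells with an RNA and less RNA per cell cannot be told apart. Adjusted p-values come from the quasi-likelihood test of edgeR, with the Benjamini-Hochberg method applied over all genes tested.

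The HSP90 genes had the counts to show the fall in each library. HSP90AB1 had 95.9, 117.0 and 121 CPM with A-485, against 319, 411 and 317 CPM untreated. The groups lay far apart, with the highest treated library below the lowest untreated one by more than the range within either group. Its log2 fold change was −2.06 ± 0.15 (SE, n = 3 per group), which is 4.16-fold lower (adjusted p = 8.71e-06). HSP90AA1 had 59.2, 55.5 and 57.0 CPM with A-485, against 134, 129 and 113 CPM untreated. This inducible HSP90 gene fell 2.91-fold (log2 fold change −1.54 ± 0.07, adjusted p = 1.80e-10), and its treated libraries lay closer together than its untreated ones.

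The HSP70 genes had smaller fold changes. HSPA1B, a stress-inducible HSP70, had 82.6, 68.4 and 66.7 CPM with A-485, against 107, 109.97 and 116 CPM untreated. The groups did not overlap, and the fall was 2.03-fold (log2 fold change −1.02 ± 0.09, adjusted p = 1.40e-07). HSPA1A, its near-identical copy, was listed at 0 in all 6 libraries, where a count of 0 allows 3 counts or 0.337 to 0.432 CPM (counting error only). HSPA8, the constitutive HSP70, had 29.5, 35.2 and 35.5 CPM with A-485, against 37.4, 35.6 and 36.1 CPM untreated. The treated libraries reached almost to the untreated ones on this scale, which carries no composition factor. Under TMM scaling HSPA8 was lower by 0.53 ± 0.10 on the log2 scale (adjusted p = 0.000268), and with library sizes alone it differed by −0.12 and the call was lost (adjusted p = 0.306). Library sizes alone moved the median of all genes to 0.49, and the other 8 calls kept their direction and stayed past the threshold.

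The co-chaperones of HSP70 fell as well. DNAJB1, the J-domain protein that activates HSP70, had 175, 159 and 167 CPM with A-485, against 307, 300.3 and 300.2 CPM untreated. Its fold was 2.40 lower (log2 fold change −1.26 ± 0.05, adjusted p = 9.71e-11), with the smallest SE of the 9 genes. BAG3, which links HSP70 to autophagy, had 42, 66 and 37 counts with A-485, against 135, 119 and 108 counts untreated. These were 5.39, 7.42 and 4.31 CPM with A-485, against 16.5, 15.2 and 15.5 CPM untreated, so the treated libraries varied more among themselves than the untreated ones and still lay below them (log2 fold change −1.86 ± 0.18, adjusted p = 4.10e-07). HSPH1, an HSP110 that releases nucleotide from HSP70, had 26, 41 and 43 counts with A-485, against 74, 86 and 72 counts untreated. Its log2 fold change was −1.62 ± 0.19 (adjusted p = 3.60e-06).

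The mitochondrial pair parted. HSPE1, the HSP10 lid, had 65, 73 and 75 counts with A-485, against 172, 136 and 122 counts untreated, and fell 2.93-fold (log2 fold change −1.55 ± 0.13, adjusted p = 1.26e-07). HSPD1, the HSP60 barrel that it closes, had 240, 285 and 291 counts with A-485, against 140, 60 and 40 counts untreated. Untreated replicate 1 stood well above the other untreated libraries and below all treated ones, and the log2 fold change was 1.24 ± 0.30 (adjusted p = 0.00604). Without untreated replicate 1 it was 1.81 (adjusted p = 2.92e-11). With the counts of its pseudogenes added it was 0.54 ± 0.17 (adjusted p = 0.0119). ACTB, which was looked up after HSPD1 had been seen, had 17.6, 18.7 and 16.4 CPM with A-485, against 6.23, 3.20 and 4.32 CPM untreated.

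The groups did not overlap for 8 genes that were lower (34.9% of all genes tested) and 1 that was higher (39.8%) in TMM-scaled CPM. Together the 10 genes held 0.0490%, 0.0487% and 0.0499% of the counts in the treated libraries, against 0.0967%, 0.104% and 0.0932% in the untreated ones. Features of the libraries differed along with the treatment. Reads outside annotated genes made up 8.69% ± 0.375 with A-485 (mean ± SD, n = 3), against 3.92% ± 0.538 untreated. Reads without a unique alignment made up 48.9% ± 0.0704 with A-485, against 55.2% ± 0.582 untreated. The median log2 fold change of all genes also varied with the number of annotated transcripts, at 0.06 for genes with 1 transcript, −0.21 for 2 to 3 and 0.66 for over 20. Of the 6 T and NK cell markers 4 to 5 were above 0 in each library with A-485 and 5 in each untreated one, and they summed to 549 to 588 CPM with A-485, against 637 to 682 CPM untreated. Most of that was CD3G (489 to 525 CPM with A-485, against 569 to 617 CPM untreated), and CD247 had 20.9 to 25.7 CPM with A-485, against 3.33 to 7.94 CPM untreated. Of the 6 epithelial and fibroblast markers only DCN was above 0, at 177 to 193 CPM with A-485, against 381 to 428 CPM untreated. The 6 myeloid markers summed to 43.5 to 48.9 CPM with A-485, against 32.2 to 39.9 CPM untreated. SPI1 made up most of this sum, at 36.4 to 40.4 CPM with A-485, against 30.2 to 35.7 CPM untreated. CD33 had 6.29 to 8.09 CPM with A-485, against 1.44 to 4.28 CPM untreated. The part of these features in the changes of the heat shock genes was not tested.

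**Figure D2:**
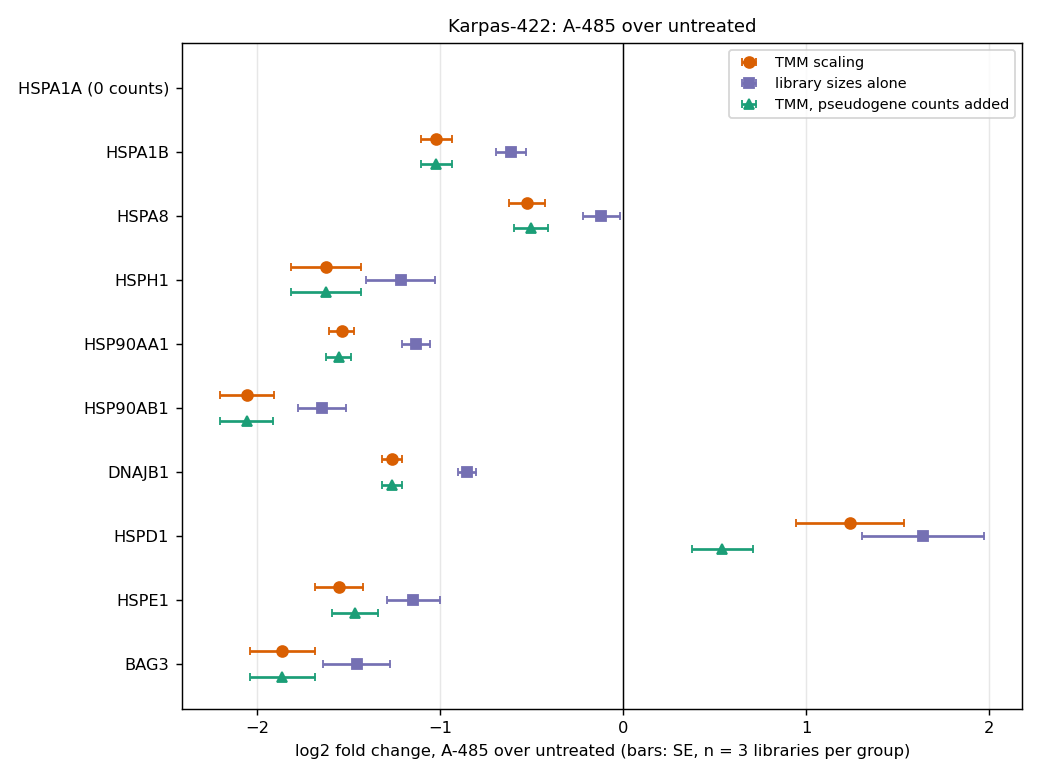
Log2 fold change in Karpas-422, A-485 over untreated, with SE (3 libraries per group), under TMM scaling, library sizes alone and TMM with pseudogene counts added. Of the 9 tested genes, 8 lie left of 0 under each setting, HSPA8 nearest to it, and HSPD1 lies right of 0 and moves to 0.54 once pseudogenes are added.

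Other genes of the pathway were taken from lists chosen by role, with 84 genes, of which 63 were tested in Karpas-422. Under TMM scaling 30 of these fell, 19 rose and 14 were not called. With library sizes alone fewer were called lower and more higher. Those called higher then outnumbered those called lower, as they did over all genes tested. Of all 11846 genes tested 33.7% were called lower and 37.6% higher under TMM scaling, and each list count below stands against these shares. The factor HSF1 was not called, at −0.20 ± 0.25 on the log2 scale (adjusted p = 0.483), and had 85 counts over the treated and 67 over the untreated libraries. HSF2 stood at −0.44 ± 0.19 (adjusted p = 0.0489), and HSBP1, which binds HSF1 and represses it, fell by 1.09 ± 0.07. Of these 3 factors and regulators 2 were called lower, and with library sizes alone 1 was. Of 16 tested co-chaperones 12 fell and 4 rose (median −0.67), and with library sizes alone 8 fell and 4 rose. Among them FKBP4, an HSP90 partner in steroid receptor folding, fell by 2.32 ± 0.05 and BAG1, an HSP70 nucleotide exchange factor, by 2.31 ± 0.13, while CHORDC1, an HSP90 co-chaperone, rose by 1.46 ± 0.07. Of 6 further HSP70, HSP110 and HSP90 genes 4 fell and 1 rose, with the mitochondrial HSP70 gene HSPA9 at −1.71 ± 0.05, HSPA4 at −1.17 ± 0.05 and HSPA14 at −0.75 ± 0.05.

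Of 14 J-domain genes 7 rose and 3 fell (median 0.56), where 37.6% of all genes were called higher and 33.7% lower. DNAJA1 (−1.19 ± 0.06) and DNAJA2 (−1.18 ± 0.06), which work with cytosolic HSP70, fell, and DNAJB14 (0.72 ± 0.07), which sits in the endoplasmic reticulum membrane, rose. Of 9 mitochondrial chaperones and proteases 4 fell and 2 rose; GRPEL1, the exchange factor of HSPA9, fell by 1.87 ± 0.06, the protease subunit gene AFG3L2 by 1.31 ± 0.06 and CLPX, the unfoldase of a matrix protease, by 0.74 ± 0.06. Of 14 CCT and prefoldin genes, which encode the cytosolic chaperonin that folds actin and tubulin and its delivery complex, 5 rose and 4 fell. CCT8 rose by 1.82 ± 0.18, and CCT4 (−1.43 ± 0.13) and PFDN2 (−1.21 ± 0.06) fell. The median of this list was −0.03 under TMM scaling and 0.37 with library sizes alone, and the other list medians kept their sign under each scaling run. HSPB1, the sole small heat shock gene tested, had 25 counts over the treated and 39 over the untreated libraries (log2 fold change −1.17 ± 0.36, adjusted p = 0.00984). With library sizes alone its value was −0.77 and the call was lost.

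In WSU-DLCL2 with A-485 the genes can be given as values only, because its libraries are shallow and those of the untreated line are deep. HSP90AB1 had 255, 317 and 285 CPM with A-485, against 2176, 2253 and 3851 CPM untreated, and HSPA8 had 72.5, 64.2 and 66.4 CPM, against 1271, 1348.5 and 8944 CPM untreated. DNAJB1 had 194, 223 and 236 CPM with A-485, against 45.5, 48.4 and 228 CPM untreated. What A-485 did and what the kind of library did cannot be told apart in these pairs. Within WSU-DLCL2 with A-485, the spread between libraries differed by gene: HSP90AA1 had 120.3, 117 and 116 CPM, HSPD1 69.8, 61.7 and 64.5 CPM, HSPE1 40.4, 38.7 and 39.5 CPM, and BAG3 17.9, 17.8 and 17.0 CPM, while HSPA1B ranged more widely, at 53.1, 68.7 and 55.2 CPM. Replicates 1 and 2 of this group differed by a chi-square per gene of 7.65, the largest of the 9 pairs of shallow replicates. HSPA1A had 0, 1 and 0 counts there.

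Near-identical copies bear on several of these counts. The coding sequences of HSPA1A and HSPA1B are 1926 bases long each and differ at 4 positions (99.79% identical), and 71.3% and 73.5% of their stretches of 50 bases also occur in another gene. In each file a summary line holds reads without a unique alignment. It held 43.0% to 55.5% of reads in shallow libraries and 7.73% to 9.24% in deep ones. The sources used here do not say whether such reads also entered gene counts. The split between these genes is therefore uncertain and their sum is the safer value, though reads that fit both genes may be missing from it. Another annotated gene, AL671762.1, holds 33.2% of such stretches of HSPA1A and 35.3% of those of HSPA1B. For HSPA1L the shares are 2.46% and 2.47%. Counts of these other genes were not added to the sum. The sum was 15.7, 18.9 and 23.0 CPM in the clones, against 15.6, 16.9 and 101 CPM untreated. For HSPD1, annotated pseudogenes took 11.3% to 12.6% of the sum of gene and pseudogenes in Karpas-422 with A-485, against 36.1%, 47.4% and 63.0% untreated. In untreated Karpas-422 replicate 3 the pseudogenes thus held 68 counts and the gene 40. For HSPE1 the share was 33.2% to 35.2% in the clones, against 17.97% to 34.1% in untreated WSU-DLCL2, where replicate 3 was the lowest. The HSPA8 pseudogenes took 6.91% to 14.5% in shallow libraries and 1.32% to 2.02% in deep ones, and those of the HSP90 genes at most 5.62%. HSPH1 and BAG3 shared 0 stretches of 50 bases with other annotated transcripts, and the read-through gene HSPE1-MOB4 had 0 counts in all libraries.

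**Figure D3:**
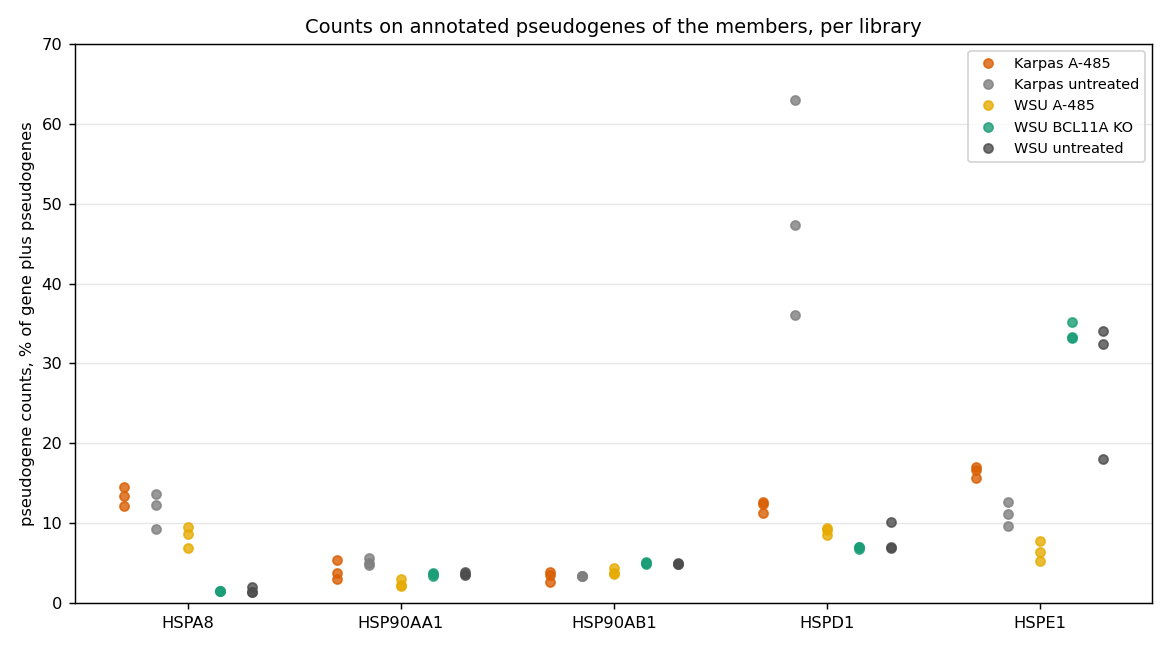
Counts on annotated pseudogenes as a percentage of gene plus pseudogenes, for the 5 genes with such counts above 1% in any library; each point is 1 library. Untreated Karpas-422 libraries stand apart for HSPD1, at 36.1% to 63.0%, and for HSPE1 the deep libraries lie above the shallow ones.

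The clones were compared with untreated WSU-DLCL2 for the effect of BCL11A loss. BCL11A RNA itself had 58.8, 69.6 and 51.9 CPM in the clones, against 46.8, 45.7 and 73.5 CPM untreated; its log2 fold change of 0.13 was not called (adjusted p = 0.915). An RNA level need not fall after a small insertion or deletion, so these counts are no check of the knockout. Against all 3 untreated libraries none of the 10 heat shock genes was called (0), and 0 of 16152 genes were called in all (0%), while 1117 (6.92%) had an unadjusted p under 0.05 and DESeq2 called 315, with 0 heat shock genes. None of the 10 (0) was free of overlap between the groups, where 16.5% of all genes were (7.96% higher and 8.51% lower). Each of the 10 had a log2 fold change below 0, between −1.66 ± 1.09 (HSPA1A) and −0.17 ± 0.25 (HSP90AB1). Without untreated replicate 3 the values ran between −0.12 ± 0.40 (BAG3) and 0.79 ± 0.34 (HSPA8), and 9 of the 10 changed sign. Their median was −0.65 with replicate 3 and 0.27 without it, against −0.01 and 0.02 over all genes tested.

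Against untreated replicates 1 and 2 alone, 351 of 16607 genes were called (2.11%, with 0.422% higher and 1.69% lower), and 0 of the 10 heat shock genes. An unadjusted p under 0.05 was found for 3150 genes, and DESeq2 called 1156 (6.96%). HSPA8 had 2761, 1355 and 2669 CPM in clones 1 to 3, against 1271 and 1348.5 CPM untreated. Clones 1 and 3 were about level with each other and clone 2 lay beside the untreated libraries (log2 fold change 0.79 ± 0.34, adjusted p = 0.295). HSPH1 had 508, 303 and 469.9 CPM in the clones, against 263 and 279 CPM untreated (0.65 ± 0.24, adjusted p = 0.233). HSP90AA1 had 3115, 1891 and 2814 CPM in the clones, against 1997 and 2119 CPM untreated, with clone 2 below both (0.34 ± 0.23, adjusted p = 0.470).

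DNAJB1 came nearest to the threshold. It had 75.4, 58.0 and 82.2 CPM in the clones, against 45.5 and 48.4 CPM untreated (0.61 ± 0.17, adjusted p = 0.147), and DESeq2 called it (0.60, adjusted p = 0.0229, where DESeq2 called 2.44% of genes higher). DNAJB1 and HSPH1 did not overlap between the groups, a count of 2 of 10 where 40.3% of all genes had no overlap (19.9% higher and 20.3% lower). HSPE1 had 72.8, 47.8 and 71.0 CPM in the clones, against 55.3 and 56.1 CPM untreated, HSP90AB1 2633, 2027 and 2638 CPM, against 2176 and 2253 CPM, and HSPD1 1781, 1373 and 1678 CPM, against 1521 and 1586 CPM. In all 3 genes clone 2 was lowest, below both untreated libraries. HSPA1A had 45, 283 and 298 counts in the clones, against 167 and 178 untreated, and BAG3 had 120, 133 and 51 counts, against 111 and 130 untreated, so in each the clones reached both above and below the untreated libraries.

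Clone 2 decided the calls. Without it 6 of the 10 genes were called higher, where 9.01% of all genes were called higher and 3020 genes (18.6%) were called in all. They were HSPA8 (1.06 ± 0.06), HSPH1 (0.86 ± 0.06), DNAJB1 (0.76 ± 0.08), HSP90AA1 (0.53 ± 0.07), HSPE1 (0.38 ± 0.05) and HSP90AB1 (0.26 ± 0.05), with adjusted p between 0.00214 for HSPA8 and 0.0276 for HSP90AB1. The fit then rests on 2 clones and 2 untreated libraries, and attention was drawn to clone 2 after its values had been seen. Without untreated replicate 1 or 2 in place of clone 2, 1 gene in all was called and 0 of the 10. Of the wider lists 73 genes were tested against replicates 1 and 2, and HSPA13, an HSP70 of microsomes, was the only one called (−0.49 ± 0.07, adjusted p = 0.0337). DNAJA1 had a log2 fold change of 0.89 ± 0.31 (adjusted p = 0.222). Among the factors, HSF1 stood at −0.07 ± 0.07, HSF2 at −0.06 ± 0.07, HSBP1 at 0.19 ± 0.12 and HSF2BP, which binds HSF2, at −1.31 ± 0.43. Further values were −0.16 ± 0.06 for TRAP1, 0.53 ± 0.20 for HSPA12B, 0.28 ± 0.10 for DNAJC5, 0.17 ± 0.07 for DNAJB6, 0.34 ± 0.14 for BAG5, 0.52 ± 0.22 for BAG1 and 0.47 ± 0.21 for CHORDC1. For HSPB1 the value was −0.75 ± 0.75, for PFDN2 −0.29 ± 0.09, for PFDN6 0.21 ± 0.10, for CCT2 0.29 ± 0.15, for GRPEL2 −0.30 ± 0.07, for SPG7 0.19 ± 0.06 and for CLPB −0.33 ± 0.12. None of these (0) passed the test.

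**Figure D4:**
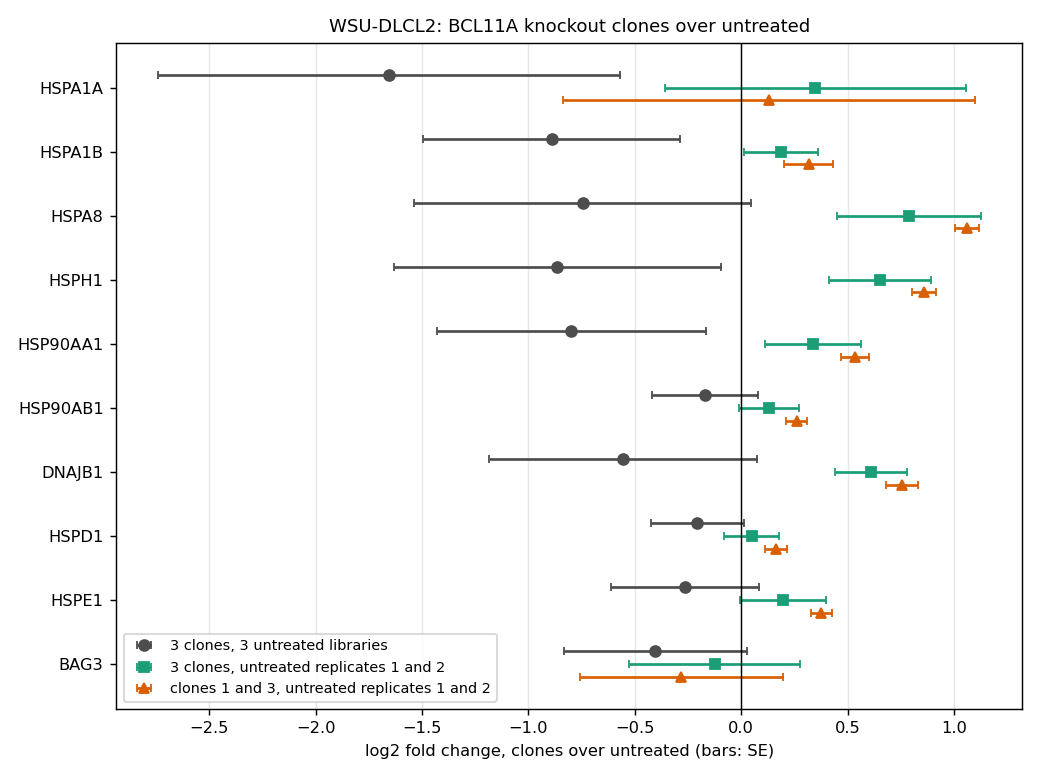
Log2 fold change in WSU-DLCL2, clones over untreated, with SE, for 3 clones against 3 untreated libraries, 3 clones against untreated replicates 1 and 2, and clones 1 and 3 against untreated replicates 1 and 2. All 10 genes lie below 0 in the first fit, and 9 lie above 0 once untreated replicate 3 is left out.

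Untreated WSU-DLCL2 replicate 3 was itself set beside replicates 1 and 2, as a description with no replicates. Its count profile differed from theirs by a chi-square per gene of 201 and 212, against 2.66 between replicates 1 and 2. All 10 heat shock genes were higher in it, and 7 of them at least 2-fold, where 10.9% of 13099 genes with at least 100 counts were at least 2-fold higher and 13.3% at least 2-fold lower. The median ratio was 4.58 for the 10 genes and 1.01 for all. The limits of 2-fold and 100 counts were set after the genes' values had been seen. Of the HSP70 genes, HSPA1A had 49.9 CPM in replicate 3, against 4.91 and 4.77 CPM, a ratio of 10.3 to their mean, and HSPA1B had 50.7 CPM, against 10.7 and 12.1 CPM (ratio 4.45). Because the split between these near-identical genes is uncertain, their sum is the safer value, at 101 CPM in replicate 3, against 15.6 and 16.9 CPM (ratio 6.20). Reads that fit both genes may be missing from this sum. The constitutive HSPA8 had 8944 CPM in replicate 3, against 1271 and 1348.5 CPM (ratio 6.83), a higher ratio than that of the inducible HSPA1B or of the sum.

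The co-chaperones HSPH1 and DNAJB1 had ratios in the same range. HSPH1 had 1827 CPM in replicate 3, against 263 and 279 CPM (ratio 6.74), and DNAJB1 had 228 CPM, against 45.5 and 48.4 CPM (ratio 4.85). The 2 HSP90 genes parted: the inducible HSP90AA1 had 9678 CPM in replicate 3, against 1997 and 2119 CPM (ratio 4.70), and the constitutive HSP90AB1 had 3851 CPM, against 2176 and 2253 CPM (ratio 1.74). The mitochondrial genes HSPE1 (121 CPM, against 55.3 and 56.1) and HSPD1 (2501 CPM, against 1521 and 1586) had ratios of 2.18 and 1.61. Pseudogene counts are not in these ratios. Those of HSPE1 were 564 in replicate 3, against 902 and 1082 in the deeper replicates 1 and 2. Those of HSPD1 were 6003, against 3917 and 4365. Adding them would lower the ratio of HSPE1 and raise that of HSPD1. BAG3 had 121 counts in replicate 3, against 111 and 130 counts in the deeper libraries, a ratio of 1.69 in CPM. Together the 10 genes held 2.73% of the counts of replicate 3, against 0.735% and 0.771% in replicates 1 and 2, and 1.10%, 0.708% and 1.04% in the clones.

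Some of the wider lists held genes with similar ratios, named here after their values were seen. DNAJA1, a J-domain partner of HSP70, had 1104 CPM in replicate 3, against 168 and 184 CPM (ratio 6.27), CHORDC1 had 407 CPM, against 100.3 and 93.7 CPM (ratio 4.20), and the small heat shock gene HSPB1 had 26.7 CPM, against 7.99 and 9.57 CPM (ratio 3.04). STIP1, which joins HSP70 to HSP90, had a ratio of 2.82, and AHSA1, which stimulates the HSP90 ATPase, of 2.38. FKBP5, an HSP90 partner and glucocorticoid target, had 32.3 CPM in replicate 3, against 146 and 153 CPM (ratio 0.216), and TRAP1, the mitochondrial HSP90, had a ratio of 0.374. By list, against 10.9% of all genes, 5 of 18 co-chaperones, 4 of 16 J-domain genes, 2 of 8 further HSP70, HSP110 and HSP90 genes, 1 of 1 small heat shock gene, 0 of 3 factors, 0 of 14 CCT and prefoldin genes and 0 of 10 mitochondrial chaperones and proteases were at least 2-fold higher. Against 13.3% of all genes, 2 CCT and prefoldin genes, 2 mitochondrial ones, 1 co-chaperone and 1 further HSP70, HSP110 or HSP90 gene were at least 2-fold lower. HSF1 had 75.0 CPM in replicate 3, against 65.6 and 67.9 CPM. ACTB stood at 3432 CPM in replicate 3, against 9852 and 9994 CPM, and whether its treatment entry or its title is right cannot be told from these counts.

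**Figure D5:**
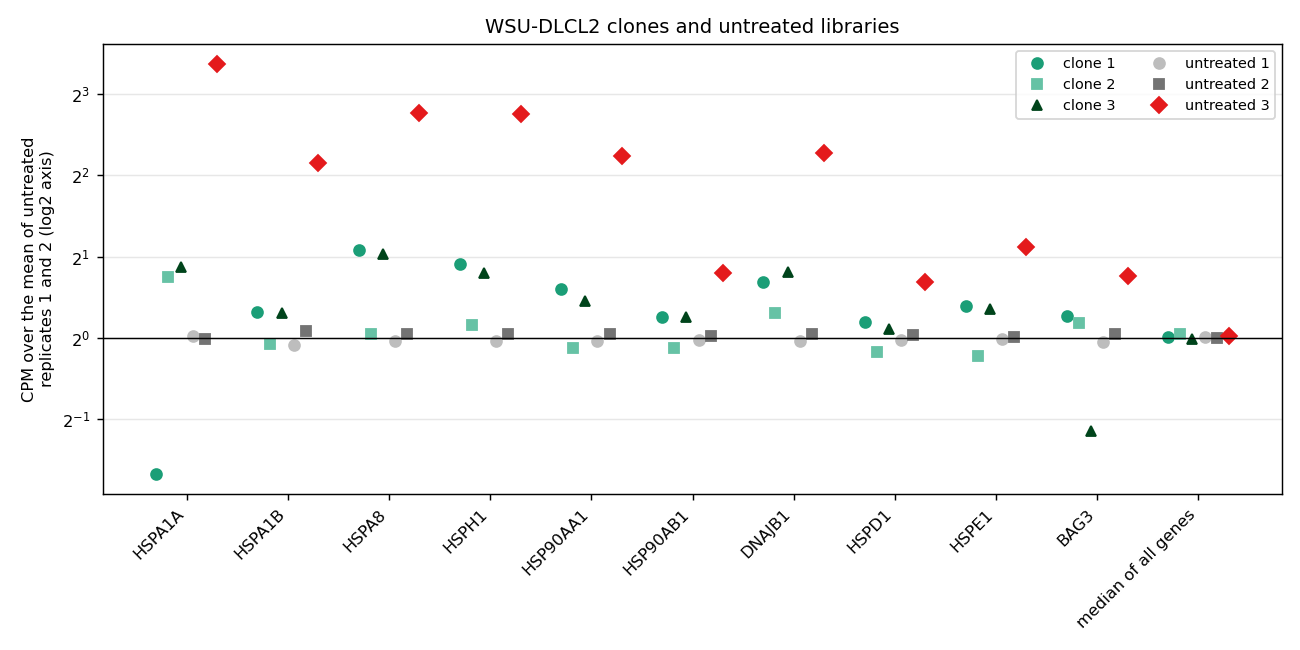
CPM of each gene in the 6 deep WSU-DLCL2 libraries divided by the mean of untreated replicates 1 and 2 (log2 axis), with the median of all genes at the right. Untreated replicate 3 lies above 1 for all 10 genes, by 1.61 to 10.3 times, while clone 1 runs from 0.313 (HSPA1A) to 2.11 (HSPA8), clone 2 from 0.859 (HSPE1) to 1.68 (HSPA1A) and clone 3 from 0.451 (BAG3) to 2.04 (HSPA8).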

How the data were processed

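Total RNA of both lines was sequenced by the authors, who deposited unnormalised counts by gene in 15 files, 1 a library; the labels list 17 samples, of which 3 runs of untreated WSU-DLCL2 replicate 3 share 1 file. Per the submitters' processing notes STAR 2.5.3a, RSEM and GRCh37 (hg19) were used. Each file has a summary line for reads without a unique alignment, and whether such reads also entered gene counts was not given. Annotation, counting program and strand were not given in the sources used here. Overlapping or antisense partners may therefore share reads. The 5 summary lines of each file stayed out of library sizes and tests (27.3% to 29.7% of reads in deep, 60.9% to 70.2% in shallow libraries).

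Symbols, transcript numbers, exonic lengths and shared stretches of 50 bases came from GENCODE 29 and a gene name table on GRCh38; 52526 of 63677 identifiers had a symbol, and those without held 0.862% of counts. No coordinates of the files' build are given.

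The deposited counts of the groups compared entered the two-sided quasi-likelihood test of edgeR 4.0.16 (R 4.3.3; TMM scaling, filterByExpr, robust fit), with Benjamini-Hochberg adjustment over all genes tested and a threshold of 0.05. SE was computed as the absolute log2 fold change over the root of F. CPM per library use library totals. Alternatives were DESeq2 1.42.0, other scalings, no filter, a replicate block, pseudogene counts added, HSPA1A and HSPA1B summed, and each library left out. The fits were tested on simulated counts. No pair of replicates was counted as 1 sample. The lowest chi-square per gene was 1.20, between replicates 2 and 3 of Karpas-422 with A-485. Counting error alone gives about 1, so repeats of 1 culture and separate cultures cannot be told apart there. The 10 genes and the wider lists were chosen with earlier results of these data known. Named genes were the 10, and per wider list and comparison the 3 tested genes with the smallest p, plus HSF1 and HSF2; for the clones these are given against untreated replicates 1 and 2. Genes named for replicate 3 and ACTB were chosen after their values were seen. Without molecular identifiers, floors of 3 counts cover counting error only.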

Additional observations from a re-analysis of the deposited data

Results flagged for a closer look

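For 3 of the genes, each counted on its own, the ratio of mean CPM, A-485 over untreated, lay on opposite sides of 1 in the cell lines, and in each line the groups did not overlap. The share of all genes that meet this rule is not given here, so the count is no sign of a trait of these genes. In Karpas-422 alone the groups did not overlap for 74.7% of all genes tested, in TMM-scaled CPM. HSPA1B had a ratio of 0.655 in Karpas-422 and 2.41 in WSU-DLCL2. Without WSU-DLCL2 untreated replicate 3 the HSPA1B ratio in WSU-DLCL2 was 5.18. For the sum of HSPA1A and HSPA1B, the safer value, it was 1.33 and the groups overlapped (53.1, 68.9 and 55.2 CPM with A-485, against 15.6, 16.9 and 101 CPM untreated); without that replicate the sum had a ratio of 3.64 and no overlap. HSPD1 had 3.17 in Karpas-422 and 0.0349 in WSU-DLCL2. BAG3 had 0.362 in Karpas-422 and 4.23 in WSU-DLCL2. The difference between the lines was not tested, and the settings for HSPA1B were added after its values had been seen. In WSU-DLCL2 the treated libraries are shallow and the untreated ones deep, and what A-485 did and what the library kind did cannot be told apart.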

How the results depend on the processing

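In Karpas-422 all 9 called genes kept their direction under every setting run, and 9 were called in each, except that with library sizes alone HSPA8 (−0.12) lost its call (8 called). Leaving out 1 library gave 7907 to 8840 called genes and 9 heat shock genes each time. In the clones against all untreated libraries, 20 genes were called with no filter on low counts and 315 with DESeq2, in both with 0 heat shock genes, and leaving out 1 library gave 0 to 351 genes. Over the fits that leave out 1 library, log2 fold changes ran from −2.11 to 0.35 for HSPA1A, −1.24 to 0.19 for HSPA1B, −1.15 to 0.79 for HSPA8, −1.27 to 0.65 for HSPH1, −1.15 to 0.34 for HSP90AA1, −0.31 to 0.13 for HSP90AB1, −0.91 to 0.61 for DNAJB1, −0.33 to 0.048 for HSPD1 and −0.45 to 0.20 for HSPE1; each lowest value was without untreated replicate 1 and each positive one without untreated replicate 3. Against untreated replicates 1 and 2, 835 genes were called with no filter and 1156 with DESeq2, which called 1 heat shock gene (DNAJB1). Leaving out 1 library gave 1 to 3020 called genes and 0 to 6 heat shock genes; HSPD1 ran from −0.029 without clone 1 to 0.16 without clone 2, HSPA1A from −0.044 without clone 3 to 0.81 without clone 1, and BAG3 from −0.35 without clone 1 to 0.19 without clone 3, so each changed sign. With 1 untreated library left, that library is assumed to vary like the clones. The design text calls treated and untreated samples paired but names no shared culture, so the main fits used no pairs. Deviations of same-numbered libraries correlated at 0.02, 0.06 and −0.04 in Karpas-422 and at 0.10, 0.03 and 0.23 in the clones. With 3 libraries per group these values cannot tell whether the samples were paired. With the replicate block 8250 genes were called in Karpas-422, 0 in the clones against all untreated libraries and 89 against replicates 1 and 2, where HSPA1A (−0.42), HSPD1 (−0.011) and BAG3 (0.20) changed sign and 0 heat shock genes were called; it changed no other call of these genes. The cause of these changes was not tested. Depth limits HSPH1, HSPE1, BAG3 and untreated HSPD1 in Karpas-422, which rest on 26 to 172 counts per library.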
